A study of Mus musculus with 20 samples.

Results

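The comparison described here asks what DSHN changed in macrophages that also received GW3965. It rests on 10 of the 20 libraries of the series, chosen by treatment label: 5 from cultures given DSHN and GW3965 together, called the combination, and 5 from cultures given GW3965 only. All 20 cultures were bone marrow-derived macrophages of female C57BL/6 mice, matured with recombinant M-CSF, and RNA was taken after 24 h of treatment. GW3965 was used at 1 µM and DSHN at 50 µM. GW3965 is labelled an agonist of the liver X receptors (LXR), and DSHN an agonist of the nuclear receptor NR0B2. The control of this comparison therefore carries the LXR agonist too. The other 10 libraries came from cultures given the solvent DMSO or DSHN at 50 µM without GW3965, and are used below only where DSHN acted without the LXR agonist. The labels call the replicates biological and do not say whether they came from separate mice, so p-values measure the spread between these cultures.

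LXRs are nuclear receptors that bind DNA as partners of the retinoid X receptors. Without a ligand they hold corepressors on their target genes, and with an oxysterol or a synthetic agonist they recruit coactivators. In macrophages their best known targets export cholesterol (Abca1, Abcg1), switch on fatty acid synthesis through Srebf1, and lower cholesterol uptake through Mylip. NR0B2, also called SHP, has no DNA-binding domain and is known, mainly from liver, as a repressor of other nuclear receptors. NRF2 is the transcription factor that cells use against oxidants and electrophilic chemicals, through the antioxidant response elements of glutathione, thioredoxin and quinone-reducing genes.

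In the combination, cholesterol exporters, lipogenic enzymes, LXR cofactors, collagens and fibronectin were lower than with GW3965 alone, and NRF2 targets, splicing factors of the SR and CLK families, nuclear long noncoding RNAs and several chemokines were higher. Most changes were small. The values are read counts per gene, scaled to library size with TMM factors and written as CPM, and each log2 fold change is the combination minus GW3965, from edgeR's quasi-likelihood fit. Of 13307 genes tested, 7688 passed an adjusted p of 0.05, a share of 57.8%, with 3760 higher (28.3%) and 3928 lower (29.5%). More than 2-fold, 74 were higher and 160 lower without the length offset described next, 77 and 105 with it, and 53 and 89 in both fits. Library totals were 16855029 to 21265191 counts in the combination and 18705790 to 22417548 with GW3965. A principal component analysis of the 10 libraries separated the groups on its first component, with 52.8% of the variance, and no library lay with the other group.

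The changes followed exon length, and named changes are therefore given a second time, in brackets, from the same fit with an offset for length. Among the shortest 10% of the genes, with a median summed exon length of 930 bases, the median log2 fold change was 0.34 and 65.2% were higher. Among the longest 10%, with a median of 13156 bases, it was -0.27 and 59.2% were lower. For each library, log2 CPM less the gene's mean over the 20 libraries was set against log2 exon length. The slope, relative to that mean, was -0.124 to -0.0943 in the combination libraries and 0.0263 to 0.0460 in the GW3965 libraries. The groups differed by -0.147 per doubling of length (two-sided exact permutation p = 0.00794, a value that groups of 5 and 5 cannot go below, and 0.0181 after Benjamini-Hochberg adjustment for 16 library measures). The share of counts on mitochondrial ribosomal and transfer RNA moved the same way, at 0.232% ± 0.0197 (SD, n = 5) in the combination and 0.141% ± 0.00706 with GW3965 (exact permutation p = 0.00794). Their part in the results below was not tested beyond the offset. With the offset 6289 genes were called (47.3%), 3165 higher and 3124 lower. In what follows a gene rose or fell only if it was called in the same direction with and without the offset, which held for 2197 genes upward (16.5% of those tested) and 2615 downward (19.7%), or 36.2% in all. The 5 and 5 libraries did not overlap for 42.4% of the tested genes.

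**Figure D1:**
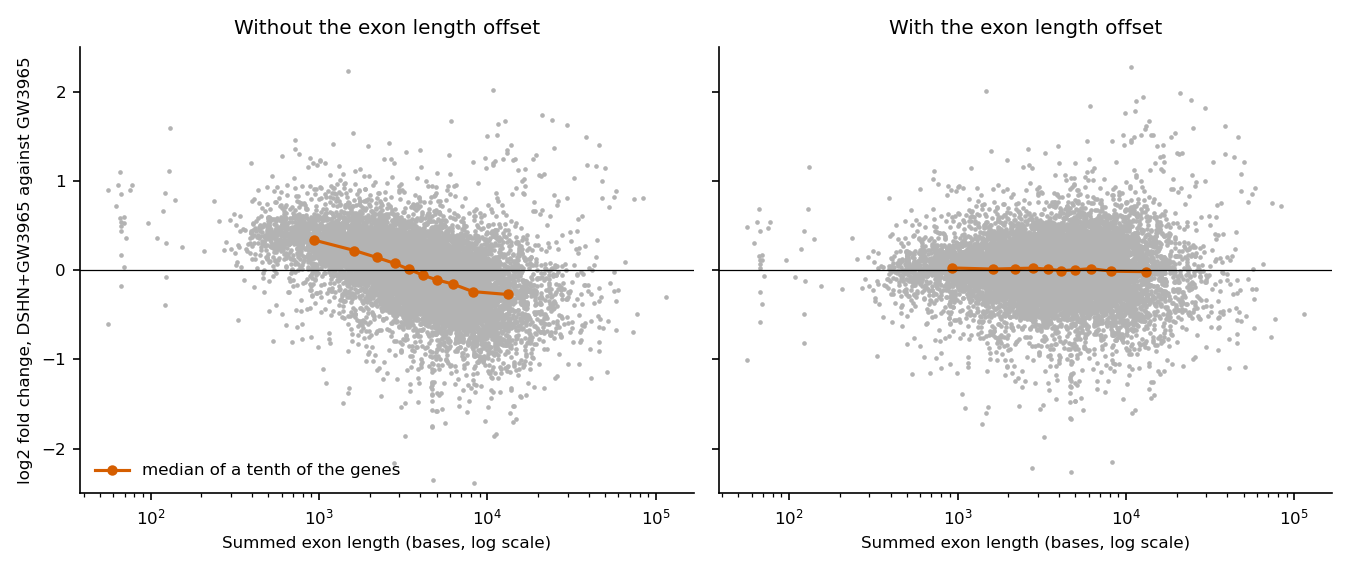
Log2 fold change of the combination against GW3965 for each tested gene (points) against its summed exon length on a log scale, without (left) and with (right) the exon length offset; orange points are medians of 10 equal bins of genes. Without the offset the medians fall from 0.34 to -0.27, and with it they stay between -0.02 and 0.02.

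The cells had the transcripts of macrophages, and that of the receptor named for DSHN was near absent. Lyz2, Csf1r and Adgre1 (the F4/80 antigen) had means of 11775, 1489 and 1281 CPM in the combination, while Ly6g and S100a9, which define neutrophils, had no count in the 10 libraries. Of the 10 neutrophil markers 2 passed the filter on low counts, and the sum of the list was 30.4 ± 2.23 CPM against 31.6 ± 5.36 (exact permutation p = 0.635). Csf3r, a cytokine receptor, had 470 to 720 counts per library and was not called. S100a8 had 17 to 21 counts per combination library and 4 to 13 with GW3965, a change of 1.20 (0.80 with the offset; adjusted p = 0.0016 and 0.044), and its call with the offset was lost without combination replicate 2, 3, 4 or 5 or GW3965 replicate 2, 4 or 5 (0.63 to 0.81). Lyz2 was called higher without the offset (0.12) and lower with it (-0.18). Nr0b2 had 2 to 7 counts per library in the combination and 0 to 4 with GW3965. That is 0.208 ± 0.119 CPM of the library total (n = 5) against 0.106 ± 0.0700, a difference within the spread (exact permutation p = 0.175), and the gene did not pass the filter on low counts. The receptors that GW3965 binds did not pass the test either: Nr1h2 (LXR beta) had a log2 fold change of -0.07 (SE 0.04) and Nr1h3 (LXR alpha) 0.10 (SE 0.07), the latter -0.02 with the offset.

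Promoters are shown for 4 genes that moved in opposite directions, 3 NRF2 targets that rose, chosen among those whose window holds the antioxidant core, and the fatty acid synthase gene, which fell. Each is the RefSeq window of 250 bases before to 50 after a transcript start, 300 bases in GRCm38.p6, printed 5′ to 3′ on the gene's strand. Capitals mark the antioxidant response element core TGACNNNGC, on either strand, in Gclm (chr3:122245307-122245606, plus strand, from base 117), Prdx1 (chr4:116685349-116685648, plus strand, from base 118) and Srxn1 (chr2:152105274-152105573, plus strand, from base 279), and the CCAAT box, on either strand, in Fasn (chr11:120824498-120824797, minus strand, from bases 161, 189 and 192, of which the last pair overlap).
Gclm: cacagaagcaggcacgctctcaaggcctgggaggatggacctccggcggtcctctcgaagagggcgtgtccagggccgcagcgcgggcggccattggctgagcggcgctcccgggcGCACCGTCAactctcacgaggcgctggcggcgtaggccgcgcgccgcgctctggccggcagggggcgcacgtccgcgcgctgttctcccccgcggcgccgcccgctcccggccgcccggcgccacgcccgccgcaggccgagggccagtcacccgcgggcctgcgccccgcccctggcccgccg
Prdx1: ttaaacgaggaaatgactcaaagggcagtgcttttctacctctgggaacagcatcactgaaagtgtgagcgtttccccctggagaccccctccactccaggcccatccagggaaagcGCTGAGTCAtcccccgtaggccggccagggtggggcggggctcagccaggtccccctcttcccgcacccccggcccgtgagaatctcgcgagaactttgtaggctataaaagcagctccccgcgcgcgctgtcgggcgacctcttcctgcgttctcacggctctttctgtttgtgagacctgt
Srxn1: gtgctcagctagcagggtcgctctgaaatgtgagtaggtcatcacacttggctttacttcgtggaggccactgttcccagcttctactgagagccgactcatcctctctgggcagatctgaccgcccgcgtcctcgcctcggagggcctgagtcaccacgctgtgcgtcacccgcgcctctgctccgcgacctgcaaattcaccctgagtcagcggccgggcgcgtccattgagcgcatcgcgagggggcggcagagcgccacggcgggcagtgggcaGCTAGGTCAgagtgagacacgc
Fasn: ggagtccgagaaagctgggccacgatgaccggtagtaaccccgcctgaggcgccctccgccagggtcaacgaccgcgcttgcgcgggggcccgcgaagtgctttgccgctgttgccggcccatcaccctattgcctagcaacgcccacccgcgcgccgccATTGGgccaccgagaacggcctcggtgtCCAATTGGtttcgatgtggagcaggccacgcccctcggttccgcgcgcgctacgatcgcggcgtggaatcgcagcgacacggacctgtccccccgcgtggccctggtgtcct

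The antioxidant core stood in 7 of 24 promoter windows of the NRF2 list (29.2%) and in 14.3% of the 13248 windows of tested genes. G6pdx and Me1, described below, are among those 7 with the genes printed. The core was also in 26.9% of windows of CLK and SR splicing genes, 22.2% for cholesterol synthesis and 21.4% for nuclear long noncoding RNAs. For fatty acid synthesis it was in 10.5%, and for LXR targets in 0. The CCAAT box stood in 10 of 19 windows of fatty acid synthesis genes (52.6%), against 37.5% of all windows. It was in 14 of 18 windows of cholesterol synthesis genes (77.8%), a list that did not move as a block. In the other lists searched it was in 35.7% to 46.2%. The LXR direct repeat, spelled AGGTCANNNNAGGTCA, was in 0 of these windows of any gene. The E-box CACGTG was in 1 of 16 windows of LXR targets, that of Abca1, and in 9.81% of all. These are matches of letters in short windows and describe no binding.

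Most transcripts that GW3965 raises through LXR were lower when DSHN was present. Of 16 tested targets, 10 fell and 1 rose, and their median log2 fold change was -0.42 (-0.36 with the offset), where the median of all tested genes was 0.02 and 0.01. Abca1 (GeneID 11303, chromosome 4, 53030789 to 53159988 in GRCm39, with 10432 exon bases), which loads cholesterol onto apolipoprotein A-I, had 3613, 3314, 3140, 2827 and 2856 CPM with GW3965 and 1286, 1295, 1256, 1131 and 1252 in the combination. Every combination library was far below every GW3965 library. Its log2 fold change was -1.34 (SE 0.12; -1.08, SE 0.11, with the offset; edgeR adjusted p = 7.4e-10 and 1.3e-08). The combination mean of 1244 ± 65.7 CPM still lay above the 208 ± 43.7 CPM of DMSO.

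Transport proteins and secreted products of LXR target genes fell by less. Abcg1, which exports cholesterol to high-density lipoprotein, changed by -0.75 (-0.60 with the offset), and Pltp, the phospholipid transfer protein, by -0.76 (-0.94). Exons of Pltp overlap those of its neighbour Ctsa on the opposite strand over 26.8% of their length, and strand was not used in counting. Cd5l, a secreted protein that promotes macrophage survival, changed by -0.73 (-0.88). Mylip, a ubiquitin ligase that lowers lipoprotein uptake, had 181 to 209 CPM with GW3965 and 154 to 174 in the combination, and its change was -0.25 (SE 0.06; -0.22 with the offset; adjusted p = 0.00059 and 0.0021). The groups did not overlap for any of these 4 genes, which also held for 42.4% of all tested genes. The member that rose was Arl4c, a small GTPase, by 0.11 (0.16). Apoe, the abundant apolipoprotein of macrophages, had 5759 ± 460 CPM against 6271 ± 596. It was not called without the offset (-0.12; adjusted p = 0.0673) and was called lower with it (-0.22; adjusted p = 0.00362). Before the offset it was also called lower without combination replicate 2 or 3 or GW3965 replicate 4 or 5 (-0.17 to -0.14), and with no filter on low counts (-0.13; adjusted p = 0.00473).

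The cofactors through which LXR acts also fell, and these are long genes whose values moved with the offset. Of 19 receptors and cofactors 11 fell and 0 rose in both fits (2 were called higher without it), with a median exon length of 7752 bases and a median log2 fold change of -0.34, or -0.11 with the offset. The corepressor Ncor1 changed by -0.71 (-0.44 with the offset). The coactivators Ep300, a histone acetyltransferase, and Ncoa1 changed by -0.75 (-0.50) and -0.65 (-0.40). The corepressor and the coactivators named moved in the same direction.

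**Figure D2:**
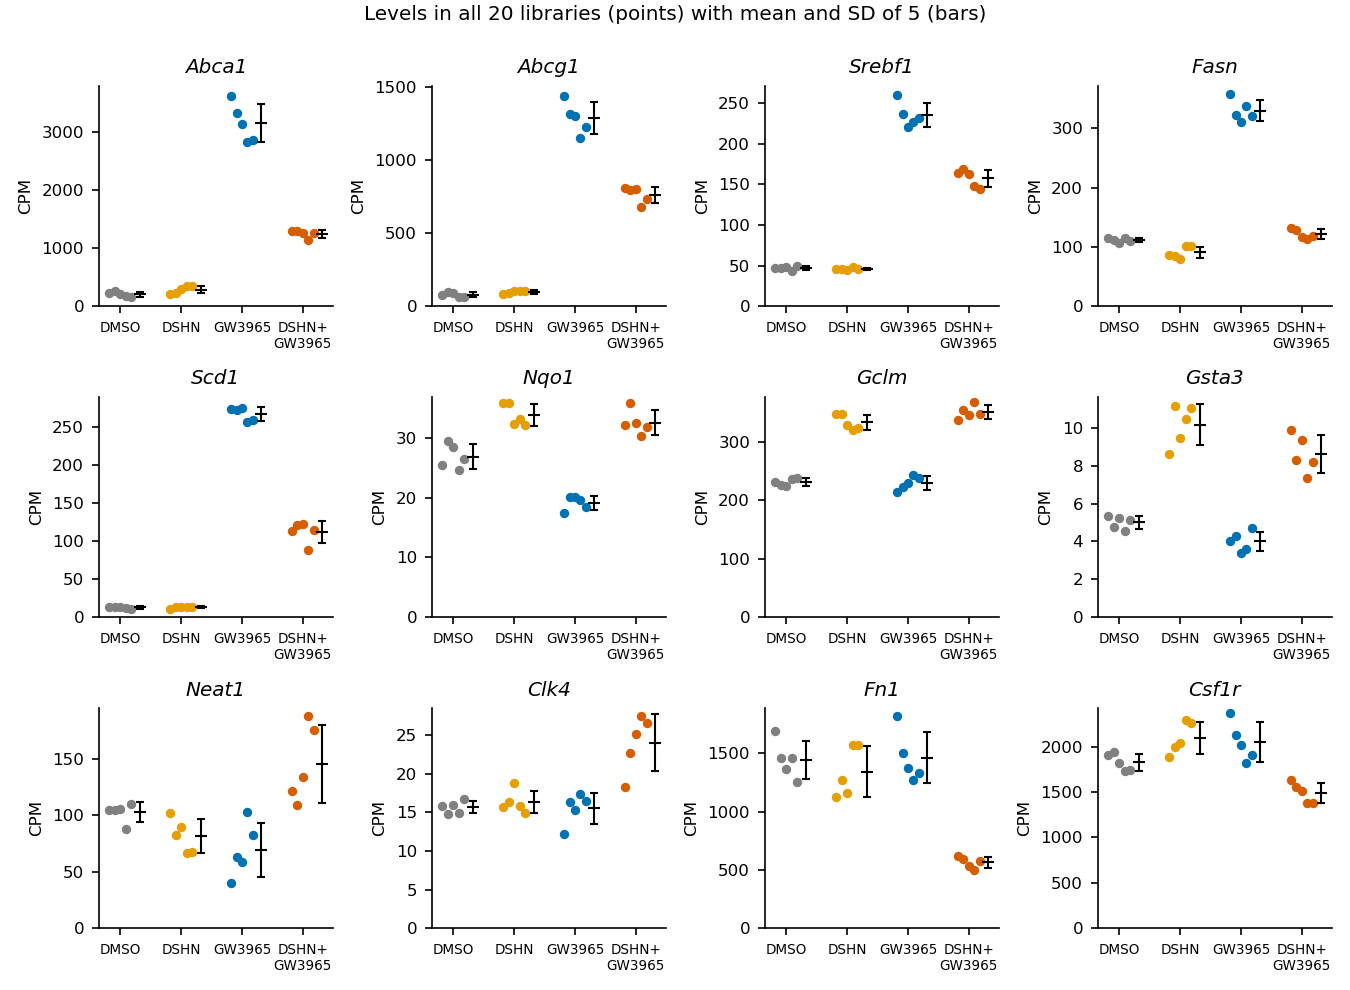
CPM of 12 genes in each library (points) by treatment, with the mean and SD of 5 libraries (bars); all axes start at 0. For Abca1, Abcg1, Srebf1, Fasn, Scd1 and Fn1 the 5 combination libraries lie below the 5 GW3965 libraries, and for Nqo1, Gclm and Gsta3 above them.

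The enzymes that make and desaturate fatty acids fell as well. Of 21 tested members, 11 fell and 1 rose, with a median log2 fold change of -0.36 (-0.32 with the offset). Fasn (GeneID 14104, chromosome 11, 120696784 to 120715992), which builds palmitate and whose promoter is shown above, had 357, 323, 310, 338 and 321 CPM with GW3965 and 132, 129, 117, 114 and 118 in the combination. That is a change of -1.43 (SE 0.06; -1.17 with the offset; adjusted p = 8.7e-16), and the combination mean of 122 ± 7.92 CPM was close to the 112 ± 3.59 of DMSO. The delta-9 desaturases Scd1 and Scd2 changed by -1.25 (-1.15) and -0.64 (-0.50). Acaca, which makes malonyl-CoA for Fasn, changed by -1.01 (-0.74). Srebf1, the transcription factor of the pathway, had 221 to 260 CPM with GW3965 and 145 to 168 in the combination, a change of -0.58 (SE 0.04; -0.47). The member that rose was Me1, the malic enzyme that supplies NADPH and stands on the NRF2 list as well, by 0.24 (0.26).

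Genes of cholesterol supply did not move as a block. Of 20 enzymes of cholesterol synthesis 4 rose and 4 fell, with a median of 0.05 (-0.03 with the offset). With the offset 5 were called lower, and 3 without combination replicate 5 or GW3965 replicate 4. Fdft1, the squalene synthase, rose by 0.20 (0.46), and Pmvk, a mevalonate pathway kinase, by 0.27 in both fits. The list of sterol sensing and uptake differed, since 10 of its 15 members fell and 2 rose (median -0.22, and -0.26 with the offset). Npc1, which moves cholesterol out of lysosomes, changed by -0.71 (-0.56). Scap and Mbtps1, which escort and cleave the SREBP proteins, changed by -0.40 (-0.31) and -0.44 (-0.35).

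Genes of the antioxidant response rose. Of 23 tested NRF2 targets 13 rose and 1 fell, with a median of 0.33 (0.16 with the offset), and 17 were called higher before the offset was applied. Nqo1 (GeneID 18104, chromosome 8, 108114856 to 108139012), which reduces quinones, had 17.4, 20.1, 20.1, 19.5 and 18.4 CPM with GW3965 and 32.2, 35.9, 32.4, 30.3 and 31.8 in the combination. The change was 0.76 (SE 0.06) in both fits. Gclm, the regulatory subunit of the enzyme that starts glutathione synthesis, had 215, 222, 229, 243 and 238 CPM against 337, 355, 345, 369 and 347, a change of 0.61 (0.47; adjusted p = 1.6e-12 and 1.9e-11). No library of either gene overlapped the other group, as was true of 42.4% of all tested genes.

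Of the other genes whose promoters are printed, Prdx1, a peroxidase of the thioredoxin system, rose by 0.59 (0.36), and Srxn1, which repairs oxidised peroxiredoxins, by 0.42 (SE 0.04) in both fits. Txn1, thioredoxin itself, rose by 0.58 (0.29). The member that fell was G6pdx, whose product opens the pentose phosphate pathway, with a change of -0.30 (-0.41) although its promoter holds the core motif too. Slc7a11, the cystine carrier often used as an NRF2 readout, was not called, at 7.18 ± 0.382 CPM against 7.95 ± 0.865. Hmox1, heme oxygenase, had 994 ± 79.8 CPM against 754 ± 63.2 and rose by 0.40 (0.19), but was not called with the offset without combination replicate 1 or 4 or GW3965 replicate 1, 2 or 3 (0.14 to 0.19), or with genomic span in it (adjusted p = 0.0585).

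Glutathione transferases, which attach glutathione to electrophiles, moved upward more weakly once length was considered. Of 15 tested, 12 were called higher and 0 lower without the offset, and 6 rose in both fits. With the offset 6 were called higher, and 3 without combination replicate 3 or GW3965 replicate 4. Gsta3 (chromosome 1, 21310789 to 21335799) had 4.04, 4.30, 3.41, 3.60 and 4.68 CPM with GW3965 and 9.89, 8.32, 9.34, 7.32 and 8.18 in the combination, and its change of 1.11 (SE 0.10; 0.91) was the largest of the 12 largest rises listed below. The abundant Mgst1 and Gstm1 changed by 0.39 (0.15) and 0.41 (0.17). With the offset, the call of Mgst1 was lost without combination replicate 2 or 3 or GW3965 replicate 4 or 5 (0.10 to 0.14). That of Gstm1 was lost without combination replicate 1 or 3 or GW3965 replicate 4 (0.11 to 0.15), and with genomic span in the offset (adjusted p = 0.0583).

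Several chemokine genes rose and none of the 21 tested was called lower. In both fits 7 rose, and the median was 0.38 (0.19 with the offset). Without GW3965 replicate 2 or 3 in either fit, or combination replicate 3 with the offset, 1 was called lower. Cxcl14 (chromosome 13, 56436456 to 56444624) had 20.7, 20.7, 21.0, 25.4 and 22.4 CPM with GW3965 and 39.6, 41.9, 42.0, 44.5 and 37.3 in the combination, so that the combination mean of 41.0 ± 2.72 CPM came near the 42.8 ± 3.76 of DMSO. Its change was 0.89 (SE 0.08; 0.87). Ccl6 and Ccl9, ligands of the receptor Ccr1, changed by 0.72 (0.49) and 0.50 (0.47), and Ccr1 itself by 0.51 (0.46). The chemokine of monocyte recruitment, Ccl2, was not called, at 26.7 ± 8.38 CPM against 17.3 ± 8.04. Without combination replicate 3 or GW3965 replicate 4 it was called higher before the offset (0.72 and 0.92; adjusted p = 0.0311 and 0.00456). The same held with only the 10 libraries compared (0.61; adjusted p = 0.0358), with library totals alone as scaling (0.66; adjusted p = 0.0400) and with no filter on low counts (0.60; adjusted p = 2.1e-08), and under no alternative run with the offset.

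Immediate early genes rose in part. Of 21 genes of the AP-1 and early growth response families 7 rose and 0 fell in both fits, and their median was 0.07 (0.12 with the offset). Fos had 8.17 to 11.4 CPM with GW3965 and 12.1 to 16.6 in the combination, without overlap, a change of 0.54 (SE 0.12; 0.40). Ier3, a stress-induced survival gene, rose by 0.74 (0.46), and the AP-1 subunit Jund by 0.39 (0.34). Egr1, another member of this class, was not called, with 12.4 to 26.6 CPM in the combination and 15.3 to 31.0 with GW3965.

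Inflammatory cytokines and enzymes were mixed, with 4 of 17 higher and 4 lower in both fits. Over all tested genes the shares were 16.5% and 19.7%, and counts near these do not set a list apart. Nfkbia, the inhibitor of NF-kappaB that is itself a target of that factor, rose by 0.51 (0.30). Il1a changed by -0.68 (-0.83), and the receptors Tlr2 and Tlr4, for bacterial lipoproteins and endotoxin, by -0.44 (-0.45) and -0.38 (-0.15). Tnf had 4.83 to 6.64 CPM in the combination and 2.71 to 5.77 with GW3965; its change of 0.59 (SE 0.21; adjusted p = 0.017) lost its call with the offset (0.40; adjusted p = 0.126) and, before it, without GW3965 replicate 3 (0.48; adjusted p = 0.0559). With the offset it was called without GW3965 replicate 4 (0.58; adjusted p = 0.0280). Of 24 interferon response genes 1 rose and 4 fell; without combination replicate 1 or GW3965 replicate 2, 7 were called lower in either fit. The RNA sensors Ifih1 and Ddx58 changed by -0.72 (-0.58) and -0.43 (-0.32). The exception was Bst2, tetherin, with a change of 0.55 (0.22), whose call with the offset was lost without combination replicate 1, 4 or 5 or GW3965 replicate 2 or 3 (0.17 to 0.22), and with genomic span in it (adjusted p = 0.0612).

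Receptors for engulfing dead cells fell. Of 20 efferocytosis genes 11 fell and 1 rose, with a median of -0.29 (-0.20 with the offset). Lrp1, a scavenger and signalling receptor with 15084 exon bases, had 3307, 2936, 2789, 2759 and 2675 CPM with GW3965 and 1293, 1363, 1270, 1252 and 1243 in the combination. Its change was -1.17 (SE 0.06; -0.90), and no library overlapped. Stab1 and Stab2, receptors that recognise phosphatidylserine, changed by -0.72 (-0.48) and -0.92 (-0.66), and the engulfment adaptor Dock1 by -0.77 (-0.57). Mertk, which is an LXR target as well as an efferocytosis receptor, changed by -0.46 (-0.25). The member that rose was Gas6, a bridging ligand of Mertk, by 0.25 (0.17).

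Markers of macrophage identity were divided. Of 15, 6 fell and 3 rose, beside 19.7% and 16.5% of all tested genes. The summed level of the list did not differ beyond the spread, at 20590 ± 785 CPM against 21319 ± 1007 (exact permutation p = 0.230). Csf1r, the receptor for M-CSF, had 1819 to 2374 CPM with GW3965 and 1374 to 1628 in the combination, a change of -0.46 (SE 0.06; -0.42). Adgre1 changed by -0.46 (-0.47). Cebpb, a transcription factor of myeloid and inflammatory genes, moved the other way, by 0.58 (0.36). Mrc1, the mannose receptor of alternatively activated macrophages, is not among the 15 and changed by -0.45 (-0.33). The list of alternative activation did not move with it. Of its 11 tested genes 2 rose and 3 fell, with a median of -0.001 (0.016 with the offset).

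Lysosomal genes were likewise split, with 9 of 24 lower and 5 higher. Of all tested genes 19.7% fell and 16.5% rose, and the count of falls was further above its share than that of rises. The acid glycosidase Gaa changed by -0.51 (-0.50). The protease Ctsl had 1105 to 1158 CPM with GW3965 and 1551 to 1654 in the combination, a change of 0.52 (SE 0.04; 0.53) with a gap between the groups that was much wider than either range. Cd63, a membrane protein of late endosomes, rose by 0.42 (0.18).

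Extracellular matrix genes fell and several matrix proteases rose. Of 20 genes on the list 12 fell and 5 rose, with a median of -0.29 (-0.25 with the offset). Fn1 (GeneID 14268, chromosome 1, 71624632 to 71692439), fibronectin, had 1823, 1500, 1377, 1274 and 1335 CPM with GW3965 and 622, 595, 536, 499 and 577 in the combination. Its change was -1.37 (SE 0.10; -1.13; adjusted p = 1.9e-11), and its level with DMSO, at 1446 ± 162 CPM, was like that with GW3965. The basement membrane collagens Col4a1 and Col4a2 changed by -0.83 (-0.60) and -0.90 (-0.72), and thrombospondin Thbs1 by -0.81 (-0.65). The collagenases Mmp8 and Mmp13 and the elastase Mmp12 rose by 0.79 (0.70), 0.64 (0.57) and 0.45 (0.48).

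Markers of stromal cells moved with the matrix genes. Summed over 8 markers, they had 2159 ± 170 CPM in the combination (1904 to 2328) and 2951 ± 288 with GW3965 (2536 to 3313), and the groups did not overlap (exact permutation p = 0.00794). Most of the sum came from Col1a1, Col1a2 and Col3a1, which stand on both lists and fell, with log2 fold changes of -0.40 (-0.24), -0.50 (-0.37) and -0.60 (-0.46). The markers Dcn and Lum, which define fibroblasts, were at 4 to 14 and 0 to 4 counts per library. Of 6 markers that could be tested 5 were called lower without the offset and 3 with it. The part of stromal cells in the fall of matrix genes was not tested, and in these bulk samples fewer cells of a type cannot be told apart from less RNA per cell. Summed endothelial markers, with no offset for length, were lower too, at 12.3 ± 0.624 against 15.9 ± 1.00 CPM (exact permutation p = 0.00794). Of 5 tested, 2 were called lower without the offset and 1 with it. The summed markers of dendritic cells were higher, at 212 ± 13.9 against 160 ± 11.6 (exact permutation p = 0.00794). Bst2, also on the interferon list, had means of 182 and 124 CPM in that sum, while Itgax, the next in level, had 28.5 and 33.9 and was called lower, before the offset, without GW3965 replicate 4 (-0.33; adjusted p = 0.0265) or the filter on low counts (-0.25; adjusted p = 0.00071), and not otherwise.

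Messages for splicing regulators rose together. Of 22 genes for CLK kinases, SR proteins and their relatives 17 rose and 2 fell, with a median of 0.42 (0.37 with the offset). Clk4, a kinase that phosphorylates SR proteins, had 12.1, 16.3, 15.3, 17.3 and 16.5 CPM with GW3965 and 18.3, 22.6, 25.1, 27.5 and 26.6 in the combination, a change of 0.62 (SE 0.09; 0.69). Srsf7 and Srsf5, SR proteins that bind exons, changed by 0.58 (0.53) and 0.56 (0.36). The members that fell were the large nuclear speckle proteins Srrm2, with 11992 exon bases, by -0.83 (-0.55) as a log2 fold change, and Son, by -0.32 (-0.07), the latter not called with the offset without combination replicate 3 or 5 or GW3965 replicate 3 (all -0.06). Snrnp200, the helicase that activates the spliceosome, is on no list and was among the deepest falls named below, from 204 to 266 CPM down to 75.8 to 93.2.

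Nuclear long noncoding RNAs and the hosts of small nucleolar RNAs rose as well. Of 16 tested 12 rose and 0 fell, and their median of 0.64 was the highest of all lists without the offset (0.34 with it). Neat1 (GeneID 66961, chromosome 19, 5874736 to 5895508), the scaffold of paraspeckles, had 40.1, 62.6, 58.5, 103 and 82.8 CPM with GW3965 and 121, 109, 133, 187 and 175 in the combination. The spread within each group was wide, and the change was 1.06 (SE 0.17), or 1.30 with the offset. The lowest combination library was above the highest GW3965 library, which is a condition for the 12 largest rises that include Neat1. Kcnq1ot1, an imprinted antisense transcript of 83437 exon bases, changed by 0.81 (0.72). Snhg5, a short host of small nucleolar RNAs, changed by 0.93 (0.64). The list had a median exon length of 679 bases, and with the offset its members called higher went from 15 to 12.

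The 3 lists of short housekeeping genes, for ribosomes, respiration and the proteasome, lost most of their calls with the offset. Of 48 cytosolic ribosomal proteins 46 were called higher without it, with a median of 0.29, and 11 higher and 12 lower with it, with a median of 0.00. Of 39 respiratory chain genes the counts were 31 higher without it and 10 higher and 11 lower with it. Of 31 proteasome genes they were 25 higher without it and 7 higher and 6 lower with it (4 higher without GW3965 replicate 3). Among genes of the named set, Ndufb4 and Ndufaf8, of respiratory complex I, and the mitochondrial transfer RNA TrnI had changes of 0.60 (0.21), 0.60 (0.21) and 0.59 (0.17), and were no longer called with the offset (adjusted p = 0.0972, 0.0716 and 0.103). For these groups the direction depends on how length is treated.

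**Figure D3:**
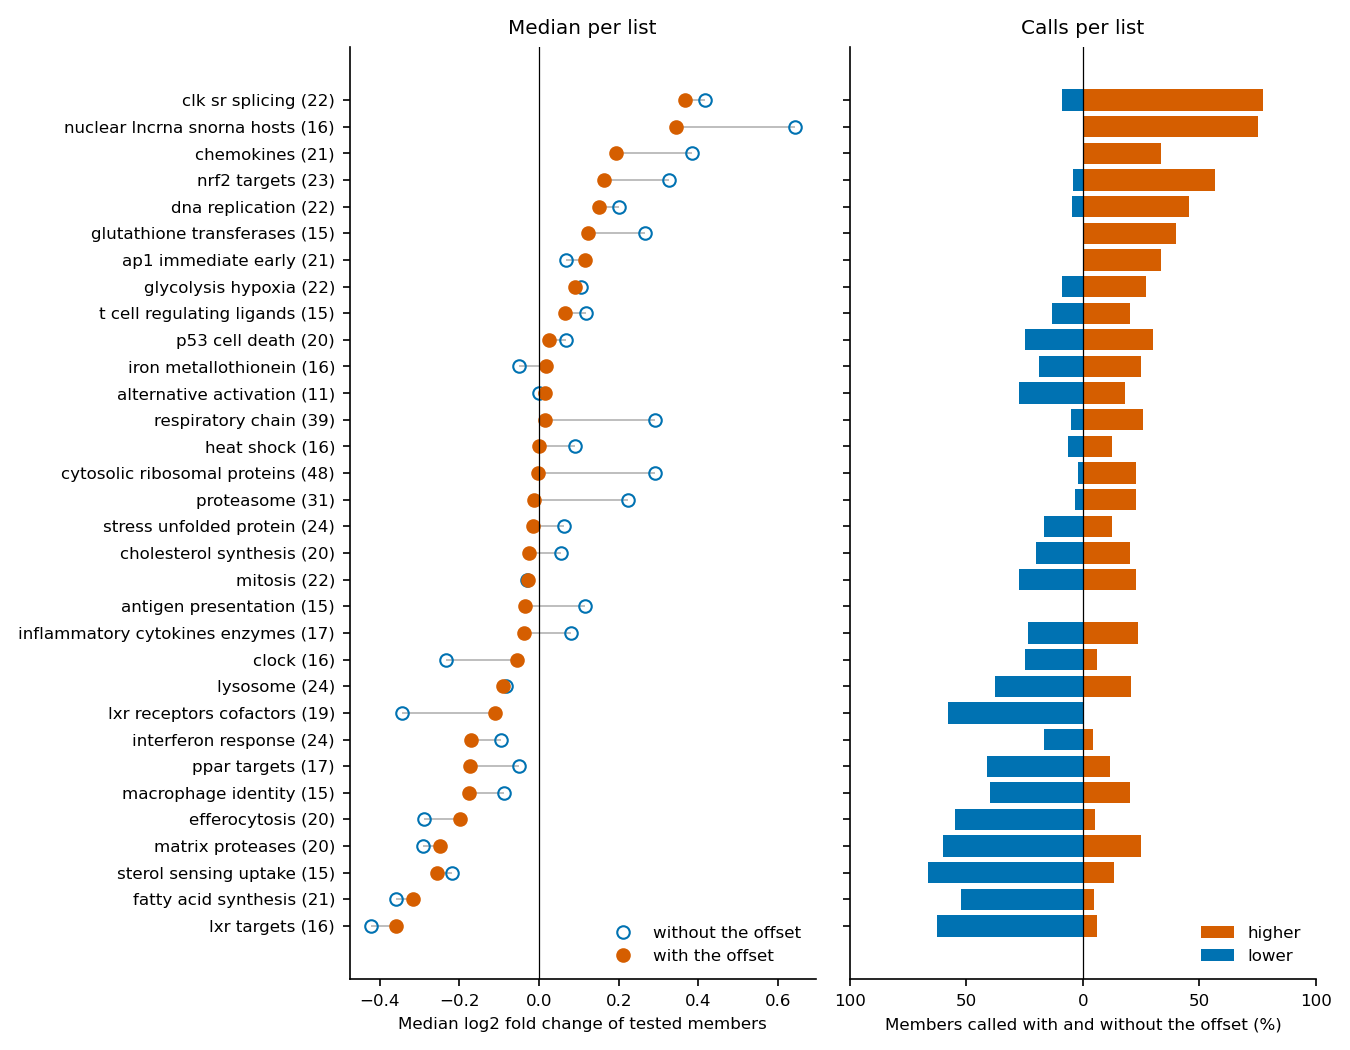
Left, median log2 fold change of the tested members of each of 32 gene lists (number tested in brackets), without (open) and with (filled) the exon length offset. Right, the share of tested members called in the same direction in both fits; LXR targets have the lowest median with the offset and CLK and SR splicing genes the highest, and ribosomal, respiratory and proteasome medians move to about 0.

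Genes of DNA replication rose in part, and mitotic genes did not share a direction. Of 22 replication genes 10 rose and 1 fell (median 0.20, and 0.15 with the offset). With the offset 11 were called higher, and 6 or 7 without combination replicate 2 or 4 or GW3965 replicate 1 or 2. Gins1, a subunit of the replicative helicase, had 7.36 to 11.0 CPM with GW3965 and 12.8 to 16.5 in the combination, a change of 0.64 (0.44); 24.6% of its exon bases are shared with another gene model on the same strand. The summed level of replication histones, whose messages lack a poly(A) tail, was 86.1 ± 3.06 CPM (81.0 to 88.5) in the combination and 75.0 ± 2.89 (71.4 to 78.2) with GW3965, without overlap (exact permutation p = 0.00794). That sum carries no offset for length, and the single genes did not share its direction. Of 10 tested, 1 was called higher and 0 lower, with a median of -0.06. With the offset 1 was called higher and 2 lower, with a median of -0.44. The part of histones in the change of replication genes was not tested. Of 22 mitotic genes 5 rose and 6 fell, not far from the shares of all tested genes (16.5% and 19.7%). Cdk1, the mitotic kinase, had 100 to 128 CPM with GW3965 and 140 to 163 in the combination, a change of 0.42 (0.49), and Birc5, survivin, rose by 0.53 in both fits. Kif20a, a kinesin of cell division, changed by -0.67 (-0.63), with 60.6% of its exon bases shared with Cdc23 on the opposite strand.

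Of 15 ligands and receptors that regulate T cells 3 were higher and 2 lower, not far from the shares of all tested genes (16.5% and 19.7%). With the offset 4 were called higher, and 2 without combination replicate 4 or GW3965 replicate 3; before it, 4 were called lower without GW3965 replicate 4. The costimulatory pair moved apart. Cd80 had 7.10 to 8.84 CPM with GW3965 and 9.14 to 11.4 in the combination, a change of 0.41 (SE 0.08; 0.42). Cd86 had 9.55 to 11.8 and 7.73 to 8.21 CPM, a change of -0.40 (SE 0.08; -0.39). Lgals9, galectin-9, changed by -0.51 (-0.72). None of the 15 genes of antigen presentation was called in the same direction in both fits. Before the offset 7 were called higher and 1 lower. With it 1 was called higher and 1 lower, and 2 to 5 were lower without combination replicate 1 or GW3965 replicate 2, 4 or 5.

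Metabolic and stress lists held a few further changes. Their counts stand beside 16.5% of all tested genes that rose and 19.7% that fell, and several are near those shares. Of 22 glycolysis and hypoxia genes 6 rose and 2 fell: Ldha, lactate dehydrogenase, rose by 0.29 (0.42), and the hypoxia factor Hif1a changed by -0.36 (-0.25). With the offset 4 of this list were called lower, and 2 without combination replicate 4 or GW3965 replicate 1. Of 17 PPAR targets 2 rose and 7 fell, among them Fabp4, a fatty acid carrier, by 0.56 (0.25), and Cpt1a, the gate of mitochondrial fatty acid oxidation, by -0.39 (-0.28). Atf4, the transcription factor of the integrated stress response, had 130 to 158 CPM with GW3965 and 209 to 240 in the combination, a change of 0.61 (0.43). Its partners on the list of 24 stress genes were split, with 3 higher and 4 lower (with the offset 4 higher, and 2 without combination replicate 4); Sesn2, a target of Atf4, changed by -0.42 (-0.49). Of 16 iron and metallothionein genes 4 rose and 3 fell, with Steap3, an endosomal iron reductase, at 0.50 (0.49) and Ncoa4, the receptor that delivers ferritin to lysosomes, at -0.94 (-0.87). In the clock list of 16 genes 1 rose, the repressor Bhlhe41, by 0.47 (0.64), and 4 fell, among them its relative Bhlhe40, by -0.36 (-0.39) as a log2 fold change. Of 20 genes of the p53 and cell death list 6 rose and 5 fell, with the proapoptotic Bbc3 at 0.56 (0.60), and of 16 heat shock genes 2 rose and 1 fell.

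Among genes called in both fits, at 5 CPM or more in a group and with no overlap of libraries, the deepest falls were mostly of large proteins. Unnamed gene models were left out. The 12 named by size of fall were Svep1, Col12a1, Usp9x, Zbed6, Elk4, Fbn1, Xylt1, Hspg2, Lnpep, Tram2, Snrnp200 and Fasn, with log2 fold changes from -1.83 to -1.43 (-1.73 to -1.17 with the offset). Fbn1, Hspg2, Col12a1 and Svep1 encode matrix proteins, namely fibrillin, perlecan, a collagen and an adhesion protein, and Xylt1 starts the sugar chains of proteoglycans. Usp9x (chromosome X, 12937221 to 13039567), a deubiquitinase, had 388, 348, 334, 316 and 308 CPM with GW3965 and 128, 120, 101, 99.8 and 109 in the combination. Its change was -1.60 (SE 0.09; -1.33), and its level was 334 ± 30.5 CPM with DMSO and 308 ± 51.5 with DSHN alone. Of the 12, 10 have 5007 to 14402 exon bases and smaller changes with the offset. The others, Tram2 with 1390 exon bases and Xylt1 with 3070, had changes of -1.49 (-1.73) and -1.53 (-1.56). Elk4, a serum response cofactor, shares 53.7% of its exon bases with Mfsd4a on the opposite strand.

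Within the same limits the 12 largest rises were smaller, from 0.79 to 1.11, and of varied function. In all, 53 genes were more than 2-fold higher in both fits, most of them outside these limits. The 12 were Gsta3, Neat1, Klra2, Afp, Npy, Snhg5, Cenps, TrnL1, Cxcl14, Rgs1, Mmp8 and Ly6a. Rgs1, which dampens chemokine receptor signals, had 15.9 to 28.3 CPM with GW3965 and 31.5 to 46.2 in the combination, a change of 0.86 (SE 0.13; 0.61). Npy, neuropeptide Y, had 10.8 to 13.8 and 21.2 to 22.7 CPM, a change of 0.93 (0.56). Klra2, a lectin-like receptor, had 1.97 to 3.51 and 4.50 to 6.07, a change of 0.98 (0.90). TrnL1 is a mitochondrial transfer RNA of 75 bases, a class that libraries of messenger RNA hold only in part, and its change of 0.90 (0.47) went with the mitochondrial share given above. Ly6a, a surface antigen, lost its call with the offset without combination replicate 1 or GW3965 replicate 2 or 3 (0.37 to 0.43).

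**Figure D4:**
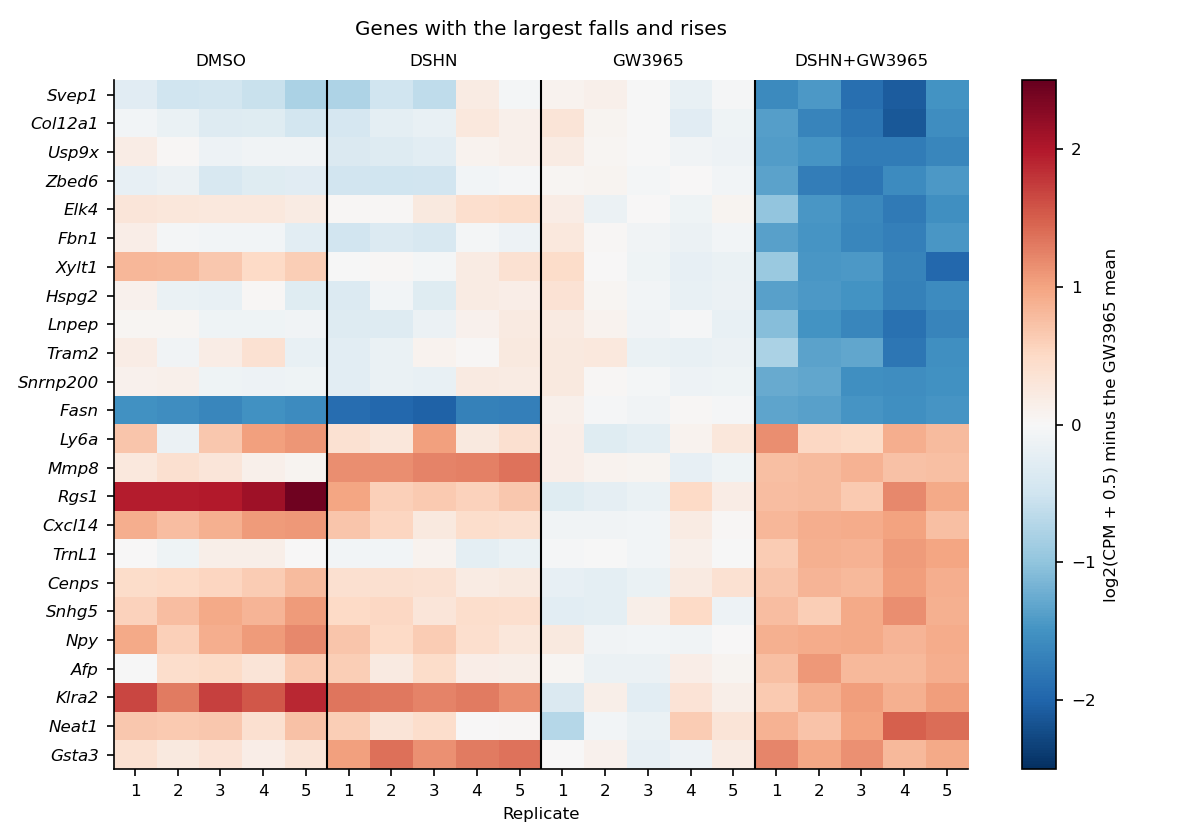
Level of the 12 falls and 12 rises named by size in the text in each of the 20 libraries, as log2(CPM + 0.5) minus the gene's mean over the 5 GW3965 libraries, by treatment and replicate. The falls other than Fasn are seen in the 5 combination libraries and not to that depth with the other treatments, while Klra2, Rgs1, Npy, Snhg5 and Cxcl14 are high with DMSO as well.

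DSHN without GW3965 had another effect, measured as the difference between the groups of the other 10 libraries in the same fit. Against DMSO 3852 genes were called (28.9%), of which 1880 were higher (14.1%) and 1972 lower (14.8%), and 29.8% of genes were called with the offset. Over the 13307 tested genes the log2 fold changes of DSHN with and without GW3965 had a Pearson r of 0.01 (-0.03 with the offset), a description across genes that are not independent. Of the genes called in both fits, 4812 with GW3965 and 3641 without, 1474 were common, 30.6% and 40.5% of the lists. The 40.5% stands beside 36.2% of all tested genes called in both fits under GW3965. The 30.6% stands beside the 28.9% and 29.8% called against DMSO. An overlap near these shares does not mark a shared set of genes. Of the 1474, 748 had the same sign and 726 the opposite. The test of the difference itself, the interaction of DSHN and GW3965, called 6681 genes (50.2%), 3154 with a higher DSHN effect under GW3965 (23.7%) and 3527 with a lower one (26.5%), and 5877 with the offset (44.2%).

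Some gene groups moved in the same direction with and without the LXR agonist and others in opposite directions. NRF2 targets rose in both, with 18 of 23 called higher against DMSO and 0 lower. Their interaction was higher in 6 and lower in 5, close to the shares of all tested genes (23.7% and 26.5%). With the offset it was higher in 6 and lower in 9, where the shares of all tested genes were 21.5% and 22.6%. The test did not separate the effects on Gclm (0.53 without GW3965 and 0.61 with it; adjusted p of the difference = 0.18) or Gsta3 (1.01 and 1.11; 0.59). For Nqo1 the effect was larger with GW3965, by 0.43 (adjusted p = 8.7e-05). LXR targets were called higher against DMSO in 8 of 16 cases and lower in 3, and their interaction was lower in 11 and higher in 2. Abca1 had an effect of 0.46 without GW3965 and an interaction of -1.80 (-1.54 with the offset; adjusted p = 8.7e-09). Chemokines were called lower in 12 of 21 cases without GW3965, and replication genes in 21 of 22, and the interaction was higher in 16 and 21 of them. Fos changed by -1.94 with DSHN alone, from 54.9 ± 9.22 to 14.3 ± 0.834 CPM, and had 14.0 ± 1.78 CPM in the combination against 9.62 ± 1.31 with GW3965. Lysosomal genes were called higher in 18 of 24 cases and lower in 1 without GW3965, and their interaction was lower in 17 and higher in 2.

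**Figure D5:**
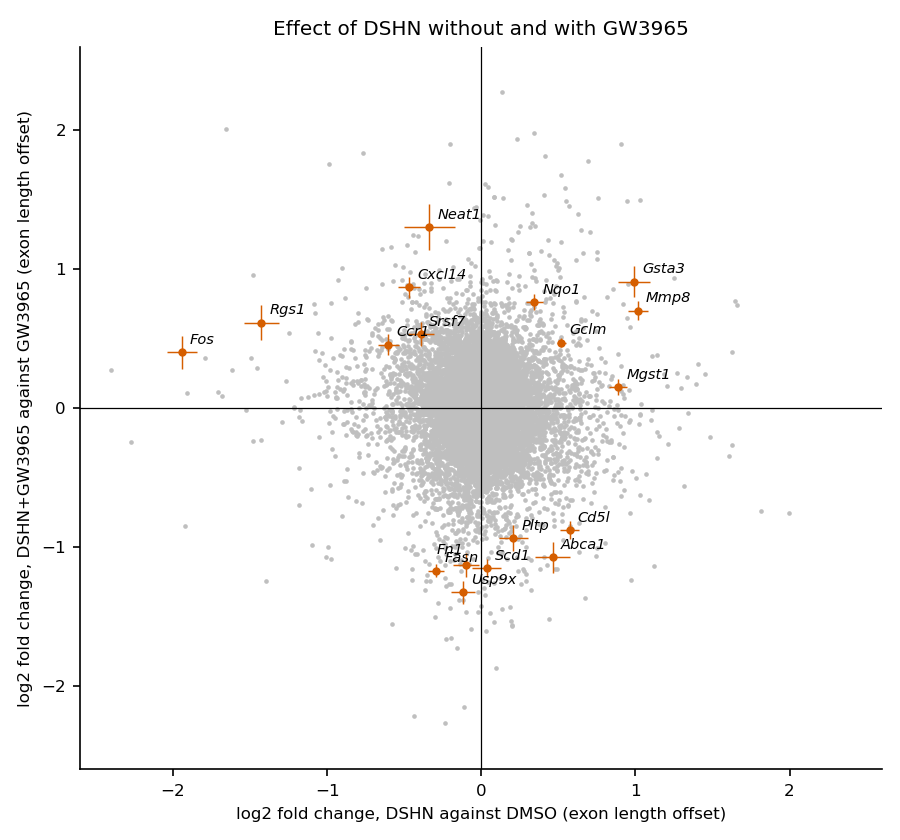
Log2 fold change of DSHN against DMSO (x axis) and of the combination against GW3965 (y axis), both with the exon length offset, for all tested genes (grey) and for genes described in the text (orange, bars are SE). Nqo1, Gclm, Gsta3 and Mmp8 lie to the upper right, Fos, Rgs1, Ccr1 and Cxcl14 to the upper left, and Abca1 and Cd5l to the lower right.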

How the data were processed

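Gene counts of 20 RNA-seq libraries were used as deposited. Libraries were made with a stranded messenger RNA kit, per the labels' protocols, and the submitters' processing notes name STAR and featureCounts. The deposited counts are whole reads per RefSeq gene in GRCm39. Per the file headers they come from version v2.0.0 of featureCounts, run with no strand option, so that both strands count toward a gene. The deposited exon length is the summed length of a gene's exons. Genes that could not be named held 0.474% of the counts.

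From the counts, edgeR 4.0.16 in R 4.3.3 (filterByExpr, TMM, quasi-likelihood test, Benjamini-Hochberg adjusted p under 0.05 over 13307 genes) was fitted to all 20 libraries with 1 mean per treatment. A second fit gave each library an offset, taken from a natural spline (5 degrees of freedom) of log2 CPM centred by gene, against the logarithm of exon length. Values in brackets after a log2 fold change come from that fit. CPM used the filtered totals and TMM factors. The comparison and the gene lists were chosen with earlier results of these data known. Of 813 list entries 798 were matched, 7 by an older name. Named were the 12 largest rises and falls called in both fits, at 5 CPM or more in a group and with no overlap of libraries, up to 4 members per list, 4 calls lost with the offset, and a fixed set of LXR and NRF2 genes. Other genes named were chosen after their values were seen. Single library values were compared with exact permutation tests. No pair of replicates agreed within sampling noise (chi-square per degree of freedom of 2.63 or more), and their numbers were not taken as pairs. Promoters came from RefSeq (GRCm38.p6). The fits were tested on simulated counts. Alternatives were DESeq2 1.42.0, limma 3.58.1 (voom), other scalings and filters, a replicate block, a test against a 1.5-fold change, fits without each library and, chosen after the data were seen, the fold test with the offset and an offset for genomic span. Some genes that the rule selects are not reported here.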

Additional observations from a re-analysis of the deposited data

Results flagged for a closer look

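Within the 125 tested genes named above and 7 library measures, 264 sets of 5 libraries were examined for a library that stood apart, by the gap to its nearest neighbour over the range of the 5. In 12 the ratio passed Dixon's 95% critical value for 5 samples, and chance passes about 1 in 20 sets. Combination replicate 4 had the lowest Abca1 (1131 CPM) and Scd1 (88.1) and the highest Fdft1 (44.4) and Hmox1 (1132), and combination replicate 5 the lowest Ctsl (1551). GW3965 replicate 1 had the highest Col4a1 (164 CPM), G6pdx (432), Npy (13.8) and Xylt1 (20.1) and the lowest Ier3 (15.1). GW3965 replicate 2 had the highest Cd80 (8.84 CPM), and GW3965 replicate 3 the highest Steap3 (29).

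For 106 of these genes the effect of DSHN differed with and without GW3965, in the fit with the offset as well as without it. The test was the interaction contrast of edgeR (Benjamini-Hochberg adjusted over all tested genes). Many of these genes were named for their change between the combination and GW3965. That change is part of the contrast, so the choice of genes favours a high count. Of all tested genes, the contrast called 50.2% without the offset and 44.2% with it. The values that follow are the log2 effect of DSHN under GW3965 minus that under DMSO, without the offset, and 63 were lower and 43 higher. Among LXR targets, lipid enzymes and cofactors the difference was -1.80 for Abca1, -1.04 for Abcg1, -0.98 for Pltp, -1.31 for Cd5l, -0.78 for Mylip, -0.80 for Apoe, -1.13 for Fasn, -1.27 for Scd1, -0.72 for Scd2, -0.84 for Acaca, -0.55 for Srebf1, -0.91 for Npc1, -0.34 for Scap, -0.43 for Mbtps1, -0.35 for Cpt1a, -0.84 for Ep300, -0.60 for Ncoa1, -0.67 for Ncor1 and -0.22 for Nr1h2. The exceptions in this group were higher, with 0.36 for Nr1h3, 0.23 for Fdft1 and 0.62 for Fabp4. For phagocytic, lysosomal and surface genes it was -1.09 for Lrp1, -1.17 for Stab1, -1.50 for Stab2, -0.86 for Dock1, -0.92 for Mertk, -0.54 for Gas6, -0.66 for Csf1r, -0.53 for Adgre1, -0.66 for Csf3r, -0.92 for Mrc1, -0.75 for Gaa, -0.68 for Lgals9, -0.63 for Tlr2 and -0.49 for Tlr4.

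Matrix genes had a difference of -2.02 for Svep1, -1.89 for Col12a1, -1.31 for Fbn1, -1.57 for Hspg2, -1.26 for Fn1, -0.46 for Col1a1, -0.53 for Col1a2, -0.71 for Col3a1, -0.57 for Col4a1, -0.68 for Col4a2, -0.68 for Thbs1, -0.94 for Xylt1 and -0.22 for Mmp8, whereas the other matrix proteases were higher, with 1.06 for Mmp12 and 1.25 for Mmp13. It was also lower for other genes that fell deeply or encode sensors and enzymes, with -1.48 for Usp9x, -1.54 for Zbed6, -1.54 for Elk4, -1.48 for Lnpep, -1.36 for Tram2, -1.43 for Snrnp200, -0.73 for Srrm2, -1.51 for Ncoa4, -0.60 for Kif20a, -0.74 for Ifih1, -0.44 for Ddx58, -1.01 for Il1a, -0.61 for Sesn2, -0.23 for Hif1a, -0.48 for G6pdx, -0.21 for Gstm1 and -0.53 for Mgst1.

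Chemokine, early response and inflammatory genes had a higher effect of DSHN under GW3965, with 2.47 for Fos, 2.26 for Rgs1, 2.18 for Ccl2, 1.61 for Tnf, 1.37 for Cxcl14, 1.12 for Ccr1, 0.68 for Ccl9, 0.37 for Ccl6, 0.77 for Ier3, 0.34 for Jund, 0.60 for Cebpb, 0.56 for Nfkbia and 0.48 for Cd80. Nuclear RNA and splicing genes did too, with 1.39 for Neat1, 1.37 for Snhg5, 0.90 for Kcnq1ot1, 0.56 for Clk4, 0.98 for Srsf7 and 0.73 for Srsf5, and so did genes of division and replication, with 1.17 for Cenps, 0.88 for Gins1, 0.53 for Cdk1 and 0.47 for Birc5. For the antioxidant response the difference was 0.43 for Nqo1, 0.31 for Prdx1, 0.25 for Srxn1, 0.47 for Txn1 and 0.44 for Hmox1. The rest of the higher values were 1.38 for Npy, 1.35 for Klra2, 0.61 for Itgax, 1.03 for TrnL1, 1.02 for Ly6a, 1.00 for Afp, 0.85 for Ctsl, 0.70 for Steap3, 0.63 for Atf4 and 0.46 for Ldha. Ccl2 and Tnf were thus separated by this contrast although neither rose against GW3965, since their effects without GW3965 count in it as well.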

How the results depend on the processing

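The number of genes called ranged from 7416 to 7932 with DESeq2, limma voom, other scalings (DESeq2 size factors or library totals alone), other filters (none or a stricter one) or the 10 libraries by themselves, from 7198 to 7696 without each library, and was 6289 with the exon length offset (5665 to 6342 without each library) and 6197 with genomic span added. Library totals alone moved the median of all genes from 0.02 to 0.07 and the share of calls that were higher from 48.9% to 58.5%. Tested against a 1.5-fold change, 249 genes were called (18 higher, 231 lower), and 95 with the offset (13 higher, 82 lower), by construction a stricter test. Of the 7688 genes called, 4812 (62.6%) were called in the same direction with the offset and 179 in the opposite one. Lyz2 reversed (-0.18 with the offset and in the fold test with it, -0.17 in the block fit with it, -0.20 with span; from -0.20 with the offset to 0.13 before it when each library was left out), as did the uncalled Nr1h3 (-0.021, -0.018 in the block fit, -0.027 with span, and -0.048 to 0.15 in the same fits without each library), Slc7a11 (0.11, 0.11, 0.14 and -0.20 to 0.15) and Csf3r (0.010, 0.012 in the block fit and -0.15 to 0.086 without each library). Nr1h2 was called with span in the offset (-0.12; adjusted p = 0.0219). The cause was not tested.

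With the replicate number as a block 7817 genes were called (3833 higher, 3984 lower), and 6427 with the offset. The numbers are not known to pair the libraries: same-numbered libraries deviated together with a correlation over 0.1 in 2 of 5 pairs (0.0268 to 0.247), and 7 of 10 libraries correlated best with their own number, a hint from the data and not the design. Apoe and Ccl2 were called in the block fit without the offset (-0.12 and 0.62; adjusted p = 0.0221 and 0.00580), and with it Tnf was called (0.40; adjusted p = 0.0194) and S100a8 not (0.80; adjusted p = 0.0606). The difference in slope on exon length was -0.172 to -0.144 under all alternatives run, and the difference in mitochondrial share 0.0870 to 0.0982 percentage points without each library. The share of mitochondrial protein-coding genes was not run, as 0 were among the features used here. Nr0b2, near 0 counts, entered the exact permutation test of its CPM and not the fits with a filter.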
